A study of Sus scrofa with 12 samples.

Results

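The paraoxonases are a family of 3 genes, PON1, PON2 and PON3, and they were followed here in the liver of pigs that differed in stress response and in aggressiveness. The members were all probe sets whose annotated gene was PON1, PON2 or PON3. This found 2 of the 23999 probe sets without controls, Ssc.21810.1.S1_at for PON3 and Ssc.16708.1.A1_at for PON2, and both lay among the 15999 with enough signal to be tested. No probe set of the annotation used here carried PON1, so PON1 was not analysed here. The family was chosen by a difference of PON3 between the stress response levels that was already known from these same arrays. The values for stress response are therefore given as a description, with no test and no support drawn from them, while aggressiveness, sex and the interactions were tested.

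Paraoxonases are calcium-dependent hydrolases that open lactone rings and cleave some esters. PON1, named for its action on the organophosphate paraoxon, and PON3 are made mainly in the liver and are carried in blood on high density lipoprotein (HDL), whereas PON2 stays inside cells and is made in many tissues. All 3 are known for limiting lipid oxidation. In the RefSeq annotation of the pig assembly Sscrofa11.1 they lie side by side, in the order PON1, PON3, PON2, between PPP1R9A and ASB4.

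Liver RNA from 12 German Landrace pigs, labelled as adults, was hybridised as biotin-labelled cRNA to the Affymetrix porcine array, 1 array per animal. The 4 groups combined a low or high stress response with low or high aggressiveness, and each held 3 animals, 1 female and 2 males. No treatment is named, and the way in which the animals were scored for either trait is not given. Each animal is named here by stress response, then aggressiveness, then a number, so that high-low 3 is an animal with a high stress response and low aggressiveness. Signals are linear intensities that had been scaled to a trimmed mean of 500.2 on every array. Nothing in the labels says whether animals shared a litter, so p-values measure the spread between these animals only.

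The liver label was checked against 18 hepatocyte markers, of which 14 were measured, and albumin (ALB) had a mean signal of 46160 ± 9480 (SD, n = 6) at low and 48420 ± 4040 (SD, n = 6) at high stress response. Correlations between pairs of arrays were at least 0.945. By the median correlation of an array with the other arrays, high-high 3 (0.9527) and high-low 3 (0.9567) were lowest, and low-high 3 (0.9572) was nearly level with the second of them. High-high 3 and high-low 3 also held the lowest PON3 signals, and high-high 3 the lowest PON2 signal, so results that rest on these 2 arrays of lowest correlation are given with and without them. The log2 of the 3'/5' signal ratio of beta-actin, a measure of RNA integrity, was 5 to 5.3 at low and 4.49 to 5.44 at high stress response. The same measure was much lower for the other controls of this kind. For EF1A it was 0.693 to 0.993 at low and 0.685 to 0.962 at high stress response, and for GAPDH 0.606 to 1.03 and 0.725 to 0.948. The part of RNA integrity in the results was not tested.

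PON3 signal was lower in most animals with a high stress response. In the low-low group it was 14570 in the female and 7748 and 8379 in the males, and in the low-high group it was 12390 in the female and 9146 and 9535 in the males. In the high-low group it was 5597 in the female and 7762 and 3337 in the males, and in the high-high group it was 4888 in the female and 7004 and 6572 in the males. Of the 6 animals with a high stress response, 5 lay below every animal with a low stress response, and the exception, high-low 2, exceeded only low-low 2. The means were 10300 ± 2637 (SD, n = 6) at low and 5860 ± 1601 (SD, n = 6) at high stress response. With aggressiveness and sex in the model the log2 difference was -0.83 ± 0.22 (SE), a 1.77-fold lower signal. In whole liver, a lower level per cell and fewer cells that make the transcript cannot be told apart.

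**Figure D1:**
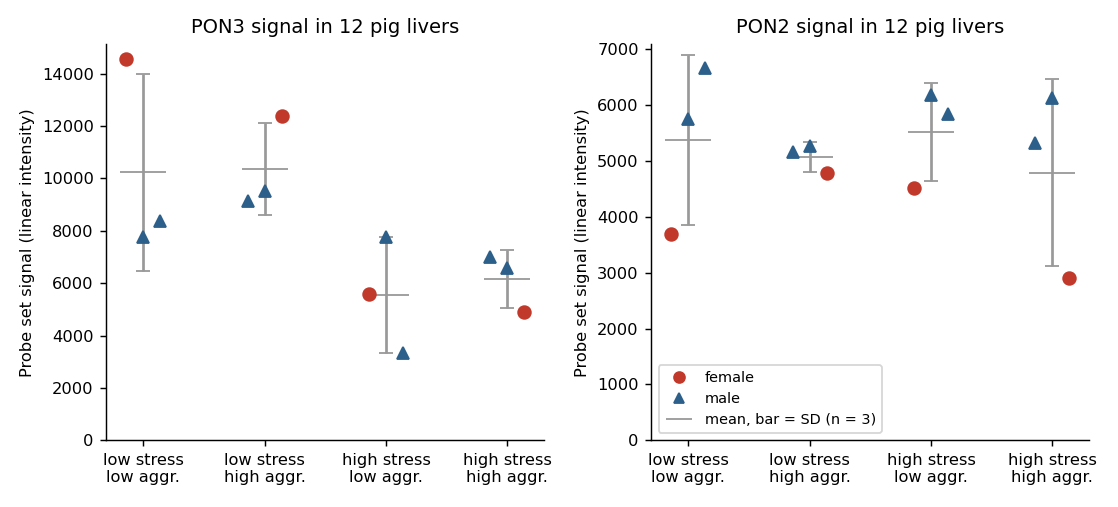
Probe set signal (linear intensity) of PON3, left, and PON2, right, in each of the 4 groups defined by stress response and aggressiveness (aggr.). Each point is an animal, circles are females and triangles males, and the line and bar are the mean and SD of 3 animals. PON3 lies between 7748 and 14570 at low and between 3337 and 7762 at high stress response, and for PON2 every male lies above every female.

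Ordered by mean signal, the PON3 groups were low-high at 10360 ± 1772, low-low at 10230 ± 3772, high-high at 6155 ± 1118 and high-low at 5565 ± 2213 (SD, n = 3 each). The means of both low stress response groups differed by less than their SD, and so did those of both high stress response groups. The widest spread, as a coefficient of variation, was in the high-low group (39.8%), where the male high-low 3 had the lowest PON3 signal of all. The stress response difference was -0.90 ± 0.324 (SE) in log2 at low aggressiveness and -0.75 ± 0.324 (SE) at high aggressiveness.

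Without the 2 arrays of lowest correlation the PON3 log2 difference with stress response was -0.56 ± 0.187 (SE), and without the 3 arrays of lowest correlation it was -0.55. Leaving out a single animal gave values from -0.97 without high-low 2 to -0.68 without high-low 3. Under quantile normalization it was -0.78, and with each array centred on its median -0.87. The sign was thus the same in each of these settings. Across all probe sets the stress response fit had 0% past an adjusted p of 0.05 (limma) and 8.16% (1305) with an unadjusted p under 0.05; the rule used this contrast, and nothing is read from PON3's place in it.

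The PON3 difference between stress response levels was wider in the few females than in the males. The females had 14570 and 12390 at low stress response and 5597 and 4888 at high stress response, with only 2 animals at each level. The males had a mean of 8702 ± 797.2 (SD, n = 4) at low and 6169 ± 1951 (SD, n = 4) at high stress response, and 3 of the 4 high stress response males lay below all low stress response males. In a fit with the interaction of stress response and sex, added after the values were seen, the log2 difference was -1.36 ± 0.343 (SE) in females and -0.56 ± 0.243 (SE) in males. The interaction was 0.80 ± 0.42 (SE; adjusted p = 0.816, limma), so unequal differences in the sexes were not shown. In that comparison 0% of probe sets passed the adjusted threshold and 6.41% had an unadjusted p under 0.05.

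PON3 showed no difference with aggressiveness that passed the test. Its signal averaged 7899 ± 3767 (SD, n = 6) at low and 8256 ± 2656 (SD, n = 6) at high aggressiveness, and the animals of the levels overlapped widely. The log2 difference was 0.14 ± 0.22 (SE), with a 95% interval from -0.35 to 0.62 and an adjusted p of 1 (limma). Without high-low 3 it was -0.01. No probe set passed for aggressiveness (0%), and 3.22% (515) had an unadjusted p under 0.05.

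The interaction of stress response and aggressiveness for PON3 was 0.15 ± 0.459 (SE), with a 95% interval from -0.87 to 1.16 and an adjusted p of 0.999 (limma). This interval is wider than the stress response difference itself is large, so an interaction of that size was not detectable with 12 arrays. Its sign turned without high-low 3, to -0.16, and with weights for array quality, to -0.05. Of all probe sets, 0% passed for this interaction and 3.87% (619) had an unadjusted p under 0.05.

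No sex difference of PON3 passed the test. The mean was 9363 ± 4849 (SD, n = 4) in females and 7435 ± 1933 (SD, n = 8) in males, and the log2 difference, male minus female, was -0.23 ± 0.233 (SE; adjusted p = 0.951, limma). It was -0.04 without low-low 1 and -0.42 without high-high 3. In the model with the interaction of stress response and sex it was -0.63 ± 0.297 (SE) at low and 0.17 ± 0.297 (SE) at high stress response. All 4 low stress response males lay below both low stress response females, whereas at high stress response the ranges overlapped. These positions of few animals are a description only, and the interaction of stress response and sex did not pass (adjusted p = 0.816, limma).

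PON2 differed most between the sexes. The females had 3697 in the low-low group, 4774 in the low-high group, 4522 in the high-low group and 2908 in the high-high group. The males had 5747 and 6665 in the low-low group, 5160 and 5270 in the low-high group, 6177 and 5833 in the high-low group and 5321 and 6126 in the high-high group. All 8 males lay above all 4 females, from which the same order within each group follows. The means were 3975 ± 847.1 (SD, n = 4) in females and 5788 ± 523.6 (SD, n = 8) in males.

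The PON2 difference, male minus female, was 0.56 ± 0.144 (SE) in log2, a 1.48-fold higher signal in males, with a 95% interval from 0.24 to 0.88. It did not pass after adjustment (adjusted p = 0.713, limma), and the probe set ranked 53 by p. Males lay above all females in 0.219% of probe sets (35 of 15999), 5.21% (834) had an unadjusted p under 0.05 for sex in either direction, and 0.0688% (11) passed the adjusted threshold. The difference was 0.43 ± 0.204 (SE) at low and 0.69 ± 0.204 (SE) at high stress response. Without high-high 3, the female with the lowest PON2 and the lowest array correlation, it was 0.42, and without the 2 arrays of lowest correlation it was 0.43.

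**Figure D2:**
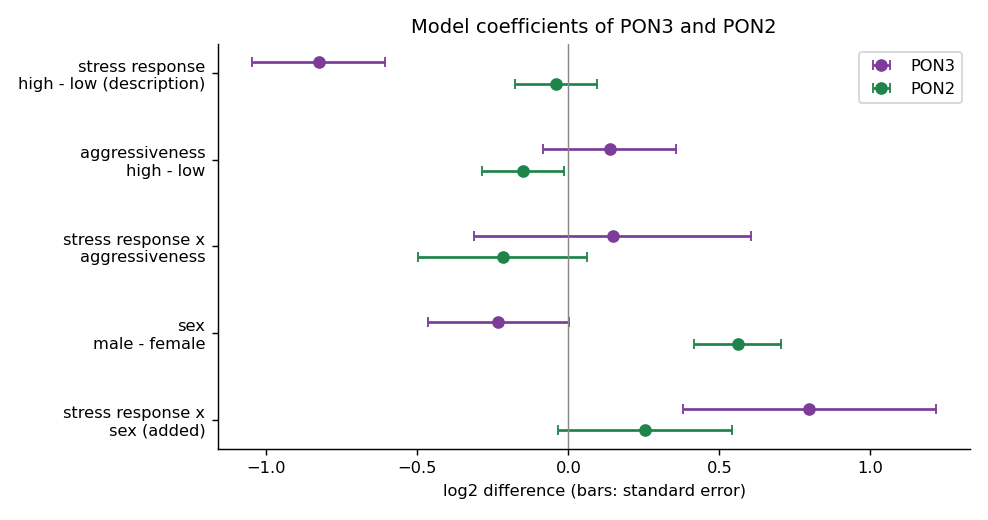
Coefficients of the fits for PON3 and PON2 on a log2 axis, with bars of 1 standard error, for stress response (a description), aggressiveness, their interaction, sex, and the added interaction of stress response and sex. PON3 is farthest below 0 for stress response (-0.83) and PON2 is farthest above 0 for sex (0.56), with adjusted p above 0.05 for all tested coefficients.

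With stress response, PON2 averaged 5219 ± 989.1 (SD, n = 6) at low and 5148 ± 1259 (SD, n = 6) at high, and the ranges overlapped widely. The log2 difference was -0.04 ± 0.136 (SE), which is smaller than its error. Its sign turned without low-high 3, to 0.06, and among the other alternatives it reached 0.13. The PON2 group means were 5511 ± 873.7 in high-low, 5370 ± 1520 in low-low, 5068 ± 260.7 in low-high and 4785 ± 1675 in high-high (SD, n = 3 each). Neighbours in that order differed by less than the larger of their SDs.

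With aggressiveness, PON2 averaged 5440 ± 1111 (SD, n = 6) at low and 4927 ± 1083 (SD, n = 6) at high. The log2 difference was -0.15 ± 0.136 (SE), with a 95% interval from -0.45 to 0.15 and an adjusted p of 1 (limma), and without high-high 3 it was -0.06. The interaction of stress response and aggressiveness was -0.22 ± 0.279 (SE; adjusted p = 0.999) and that of stress response and sex 0.25 ± 0.289 (SE; adjusted p = 0.915). Neither member thus passed the test in any comparison that was tested.

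**Figure D3:**
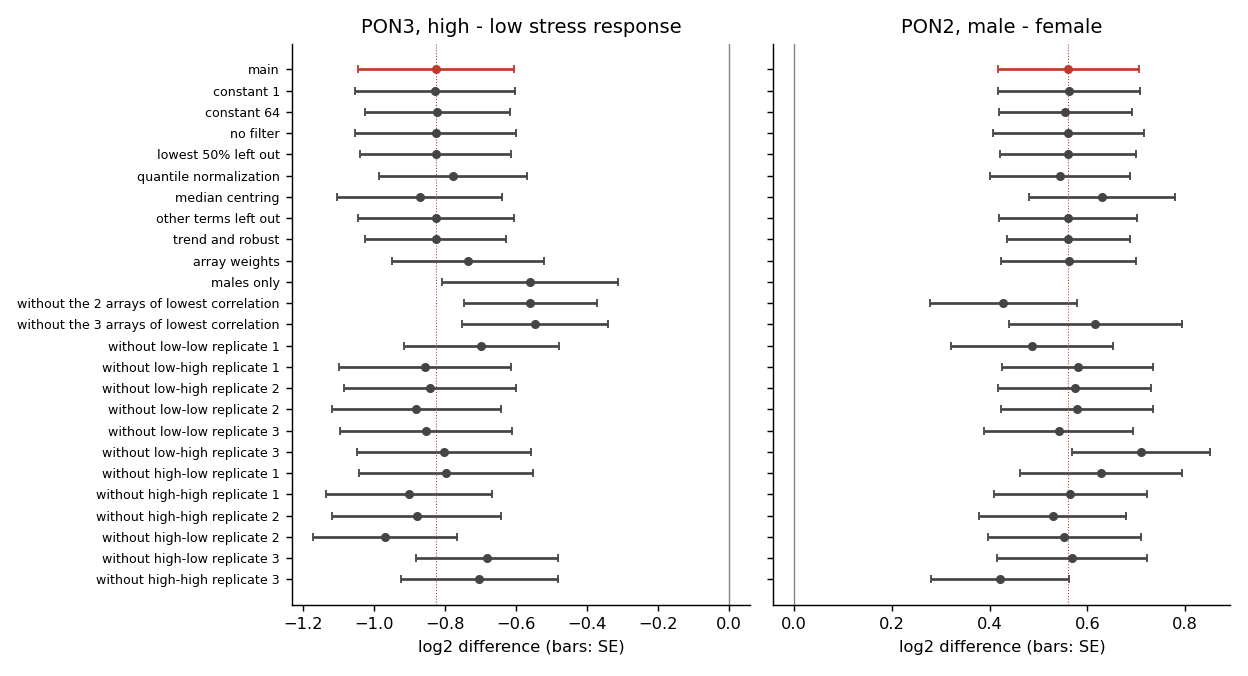
The stress response difference of PON3, left, and the sex difference of PON2, right, in log2 units with bars of 1 standard error, for the main setting (red) and each alternative, including every animal left out in turn. PON3 stays below 0, from -0.97 to -0.55, and PON2 stays above 0, from 0.42 to 0.71.

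No correlation between PON3 and PON2, which lie next to each other, was detected over all animals. A negative r within the low stress response animals came from a split made after the values were seen. Over all animals, Pearson's r between the log2 signals of PON3 and PON2 was -0.05 (n = 12, permutation p = 0.864) and Spearman's rho -0.13 (permutation p = 0.7). Without high-high 3 and low-low 1, the animals farthest from the median, r was -0.18, without high-high 3 alone it was -0.48, and without the 2 arrays of lowest correlation -0.52 (permutation p = 0.125). At low stress response r was -0.90 (n = 6, exact permutation p = 0.0125, adjusted p = 0.0375 over 3 correlations) and rho -0.89 (exact permutation p = 0.0333), and without low-low 1 and low-low 3 r was -0.96. At high stress response r was 0.25 (n = 6, exact permutation p = 0.611, adjusted p = 0.864) and rho 0.54 (exact permutation p = 0.297), and without high-high 3 and high-low 1 r was 0.07. These correlations within a level were added after the values were seen, and the difference between the levels was not tested. The split used the trait behind the choice of the family, and the adjustment over 3 correlations leaves out the other correlations given here. The p-values within a level are therefore a description only. Both low stress response females had the highest PON3 and the lowest PON2 of their level, and the part of sex in that correlation was not tested. Among the 8 males r was -0.18. After removal of stress response, aggressiveness and sex the residuals had an r of 0.27. The females set the corners of the plot, with high PON3 at low stress response, low PON3 at high stress response and low PON2 in both.

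**Figure D4:**
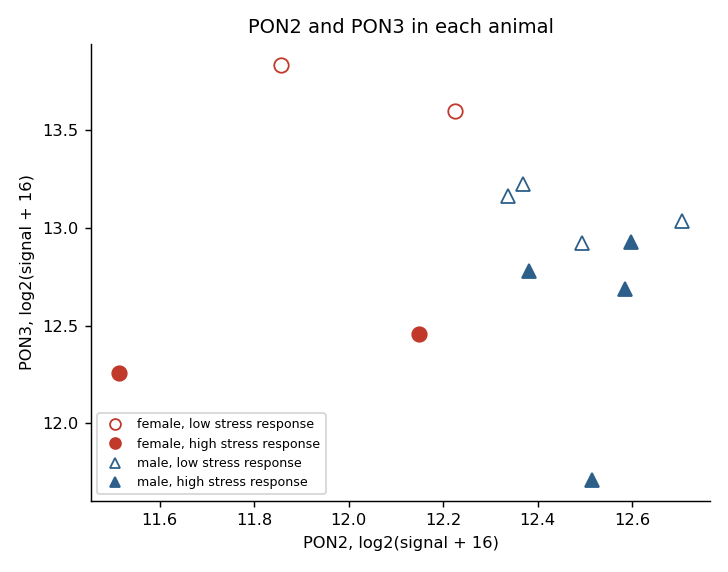
PON2 (x axis) against PON3 (y axis), both as log2(signal + 16), with a point for each of the 12 animals, females as circles, males as triangles, and filled symbols for a high stress response. Females lie to the left of all males, and all but 1 of the filled symbols lie below all open symbols.

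PON3 encodes a secreted enzyme, and the genes whose log2 signal followed it most closely over the 12 animals, among 5808 other genes, were LGMN, PSAT1, CS, NREP and TRNP1. LGMN, the lysosomal protease legumain, had an r of 0.89 and ran from 15070 to 21670 at low and from 11370 to 15570 at high stress response. PSAT1, an enzyme of serine synthesis, had an r of 0.89, and CS, the citrate synthase of the tricarboxylic acid cycle, an r of 0.88. NREP and TRNP1 each had an r of 0.87. With the model terms removed these 5 values of r were 0.73 to 0.89, and without the 2 animals farthest from the PON3 median they were 0.69 to 0.88.

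The genes that ran most against PON3 were SNRNP40 (r = -0.93), SNRPD1 (r = -0.87) and APEX2 (r = -0.87). SNRNP40 and SNRPD1 are components of spliceosomal ribonucleoproteins, and APEX2 is a DNA repair nuclease. SNRNP40 ran from 941.4 to 1126 at low and from 1139 to 1471 at high stress response, ranges that do not overlap. It was picked by its r with PON3, which was itself chosen by this contrast, so nothing is read from that separation. Among the residuals the r of SNRNP40 with PON3 was -0.94. These genes were picked as extremes of many correlations, share the animals and arrays with PON3, and carry no test.

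For PON2 the closest genes were NTPCR (r = 0.86), NDFIP2 (0.84), RAB11B (0.83), EIF1AY (0.82) and IZUMO4 (0.82). NDFIP2, an adaptor of ubiquitin ligases, ran from 1930 to 2372 in females and from 2643 to 3766 in males. Its sex difference did not pass (adjusted p = 0.445, limma). It was picked by its r with PON2, which was itself higher in all males, so nothing is read from that separation. EIF1AY lies on the Y chromosome and had a signal of 1.797 to 10.98 in females and 418.2 to 666.2 in males, with no overlap, and among males its r with PON2 was 0.36. NTPCR, a nucleotide hydrolase, had a residual r of 0.82 with PON2, and NDFIP2 a residual r of 0.47.

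The genes that ran most against PON2 were CDKN1A (r = -0.90), PRELID1 (-0.83) and ERP44 (-0.81). CDKN1A, the cell cycle inhibitor p21, ran from 955.9 to 1709 in females and from 490.4 to 960.7 in males. ERP44, a chaperone of the secretory pathway, had an r of -0.57 without high-high 3. Without the 2 animals farthest from the PON2 median the 5 closest genes had an r of 0.53 to 0.86 and these 3 genes -0.83 to -0.44. Among males IZUMO4 had 0.42, PRELID1 -0.44 and CDKN1A -0.66. The genes closest to PON2 and most against it were likewise picked as extremes of many correlations. They share the animals and arrays with PON2, and their correlations carry no test.

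Of the genes around the family in Sscrofa11.1, 5 of 9 listed were measured, and none passed in any comparison. PDK4, a kinase that restrains pyruvate dehydrogenase, had a stress response difference of -0.36 ± 0.326 (SE) in log2, and its other probe set -0.30 ± 0.369 (SE). PEG10, a paternally expressed imprinted gene, had -0.21 ± 0.359 (SE), which turned to 0.13 without the 2 arrays of lowest correlation. Its difference with sex was -1.07 ± 0.381 (SE; adjusted p = 0.879, limma), opposite in sign to that of PON2, at a low signal of 3.87 to 104.1. The other PEG10 probe sets lay below the filter and were not tested. For stress response DYNC1I1, a dynein subunit, had -0.08 ± 0.118 (SE), and COL1A2, a collagen chain, and CASD1 were within 0.001 of 0. Among males COL1A2 was 0.30 and CASD1 -0.14, and CASD1 was 0.15 without low-low 3.

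HDL carries PON3 in blood, and 19 of 26 listed genes of HDL particles and reverse cholesterol transport were measured. For stress response 7 lay above and 12 below 0, with a median log2 difference of -0.03 beside 0.02 over all 5810 genes, and none passed the test in either direction. Apolipoprotein A1 (APOA1), the main HDL protein, was 54450 ± 7540 (SD, n = 6) at low and 56690 ± 2420 (SD, n = 6) at high stress response. The smallest p values belonged to LIPC, hepatic lipase, at -0.29 ± 0.14 (SE), SCARB1, the HDL receptor, at -0.29, LCAT, which esterifies HDL cholesterol, at -0.20, and PDZK1, an adaptor of that receptor, at -0.23. Without the 2 arrays of lowest correlation SCARB1 was -0.13 and PDZK1 -0.04. For aggressiveness LIPC had -0.25, which among males was -0.02, and APOC3, an inhibitor of lipoprotein lipase, had 0.16, which was 0.08 without low-high 3 or high-low 1 and 0.05 under quantile normalization.

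Among other esterases and lactonases, 11 of 20 listed were measured, 3 above and 8 below 0 for stress response, with a median of -0.17. LIPA, the lysosomal acid lipase, had -0.39 ± 0.141 (SE; adjusted p = 0.555, limma), with 10730 ± 1440 (SD, n = 6) at low and 8232 ± 1490 (SD, n = 6) at high stress response. LACTB2 had -0.56 and PNPLA3, a lipid droplet hydrolase, -0.94, while LACTB had 0.27. For aggressiveness LACTB had 0.22 and BPHL, a serine hydrolase, -0.27. None passed in any comparison.

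Of 20 transcription factors reported to act on paraoxonase genes, 12 were measured, 8 above and 4 below 0 for stress response, with a median of 0.05, and none passed. Under quantile normalization and under median centring the split was 6 to 6. PPARA, a fatty acid sensor, had -0.55 ± 0.266 (SE; adjusted p = 0.627, limma), at a signal of 101.7 ± 35.5 (SD, n = 6) at low stress response. SREBF2, the regulator of cholesterol synthesis, had -0.33 and NR1H3, the liver X receptor alpha, -0.19, while RXRA had 0.35. Without the 2 arrays of lowest correlation SREBF2 was -0.10 and NR1H3 also -0.10. PPARA was -0.20 among males, and RXRA was 0.14 without low-low 1. For aggressiveness SREBF1 had 0.32 and RXRA 0.33, which among males were -0.01 and -0.14.

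Antioxidant enzymes were represented by 24 of 27 listed genes, 10 above and 14 below 0 for stress response. Their median was -0.03, and 0.01 under quantile normalization, so the list had no settled direction, and with median centring 7 of the 24 lay above 0. GPX3, the plasma glutathione peroxidase, had -0.31 ± 0.117 (SE), PRDX6, a peroxiredoxin, -0.46, and GCLC, which starts glutathione synthesis, -0.42, while TXNRD1 had 0.18. Without the 2 arrays of lowest correlation PRDX6 was -0.28 and GCLC -0.12. For aggressiveness GPX2 had 0.47 and GPX3 0.23, and none passed. Of the 24 differences given for genes of these lists and comparisons, 19 moved by over 1.5 times under at least 1 alternative, and 3 changed sign, those of LIPC, SREBF1 and RXRA with aggressiveness.

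**Figure D5:**
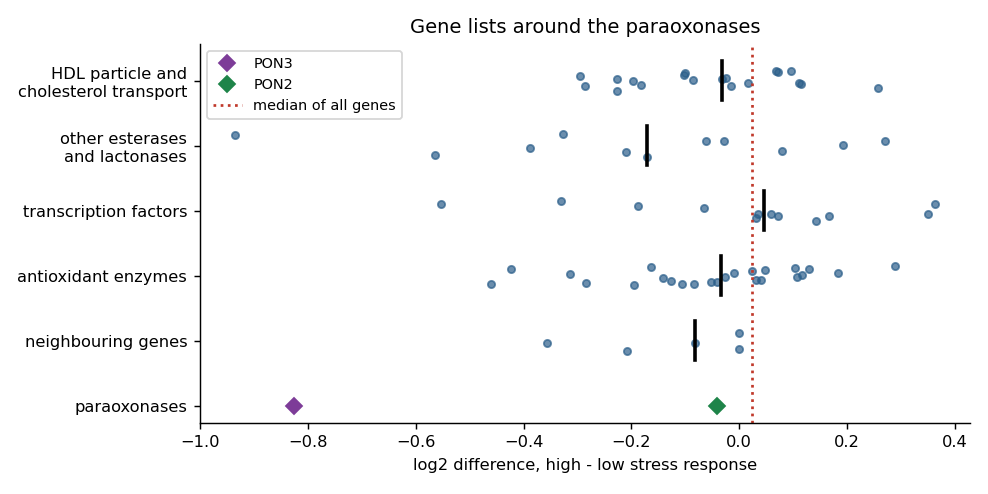
Log2 difference between high and low stress response for each measured gene of the HDL, esterase, transcription factor, antioxidant and neighbour lists (points), with black bars for list medians and a dotted line for the median of all genes (0.02). PON3 (-0.83) and PON2 (-0.04) are drawn as diamonds, and the lists spread on both sides of 0 except for the 5 neighbours.

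Markers of liver cell types were set beside these values. The summed level of the 14 hepatocyte markers, as the mean log2 deviation per animal, ran from -0.25 to 0.19 at low and from -0.11 to 0.12 at high stress response. For stress response 9 of the 14 lay above and 5 below 0, and with median centring 7 lay above. For sex 2 lay above and 12 below 0 in males (median -0.13), a split that was 6 to 8 under quantile normalization, and its part in the PON2 difference was not tested. The levels of Kupffer cell markers ran from -0.11 to 0.17 at low and from -0.15 to 0.06 at high stress response, those of endothelial markers from -0.38 to 0.38 and from -0.30 to 0.28, and those of stellate cell markers from -0.30 to 0.11 and from -0.20 to 0.44. Cholangiocyte markers ran from -0.46 to 0.90 and from -0.53 to 0.19, and lymphocyte and blood markers from -0.58 to 0.50 and from -0.23 to 0.46. The ranges of the levels overlapped for every list. Single markers, picked after their values were seen, had differences with stress response in both directions, none past the test. ARG1, the urea cycle arginase, had 0.46 ± 0.145 (SE), the Kupffer cell receptors CD163 and MARCO 0.57 ± 0.176 and -0.78 ± 0.247, and PROM1, a progenitor and duct cell marker, -1.07 ± 0.339. The adjusted p of ARG1, CD163, MARCO and PROM1 was 0.523 each (limma). At high stress response the mean signals of MARCO (31.97) and PROM1 (36.33) were low, beside a lowest tested mean of 40.58. The other Kupffer cell markers, CD14, VSIG4, C1QA and C1QC, had -0.13, 0.05, -0.21 and 0.07. The other cholangiocyte markers, KRT19, EPCAM and SPP1, had -0.32, 0.13 and -0.20. The part of cell makeup in the PON3 difference was not tested.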

How the data were processed

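The deposited values, 1 table by the authors, hold a linear intensity per probe set, made with GCOS 1.1.1 per the submitters' processing notes; summarisation and scaling settings are not given in the sources used here. Controls (124 of 24123 probe sets) and the 33.3% of the rest with the lowest mean were left out. Signals were taken as log2(signal + 16). limma 3.58.1 in R 4.3.3 was fitted with stress response, aggressiveness and sex (8 residual degrees of freedom), and again with each interaction. Tests were Benjamini-Hochberg adjusted over 15999 probe sets, at 0.05, and intervals use limma's moderated variance. The correlation of PON2 and PON3 was tested with 100000 permutations, two-sided, and within a stress response level with all 720 orders. Correlations with other genes were not tested. Figures were drawn with matplotlib 3.10.9.

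Symbols came from the array's annotation, which can be old; 10099 probe sets had 1 symbol, 198 several and 13826 none. A gene was its tested probe set with the highest mean. Cross-hybridisation between the paralogs was not tested. Named were both members, the 5 genes most and 3 least like each, all measured neighbours, and per list the 4 genes with the smallest p for stress response and 2 for aggressiveness; ALB and APOA1 were added by role. The members and lists were chosen with earlier results of these data known. Alternatives were the added constant, the filter, the scaling, the model terms, the variance estimate, array weights, males only and leaving out arrays. The number of arrays limits the precision.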

Additional observations from a re-analysis of the deposited data

Results flagged for a closer look

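Dixon's test was run on the log2 signals, and the result depends on that scale, since the linear signals were not tested. In 2 of 12 sets of animals tested, 1 animal lay far from the others in log2 signal. Chance gives this in about 1 in 20 sets. Among the 6 animals with high aggressiveness, high-high 3 had the lowest PON2 signal (2908, linear). In log2 signal its gap to the next animal was 0.665 of the whole range, above the critical value for 6. This animal is a female. Among the 8 males, high-low 3 had the lowest PON3 signal (3337, linear). In log2 signal its gap was 0.645 of the range, above the critical value for 8. These were also the arrays that correlated least with the rest. Whether the low signals and the low correlations have a common source was not tested.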

How the results depend on the processing

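No limma result for PON2 or PON3 crossed the adjusted threshold in any alternative, with a lowest adjusted p of 0.237, for PON2 and sex. The correlation of PON2 and PON3 over animals passed in 1 alternative, added after the values were seen and so a description only. It was -0.902 with low stress response animals only and 0.248 with high stress response animals only. Values near 0 changed sign, and the causes were not tested. The same correlation was 0.0727 with median centring and ranged from -0.48 to 0.21 with single animals left out. The PON2 interaction of stress response and aggressiveness was 0.17 among males only and 0.00781 without the 3 arrays of lowest correlation. The PON2 interaction of stress response and sex was -0.0183 without the 2 arrays of lowest correlation, -0.21 without the 3 arrays, and -0.0564 to 0.565 with single animals left out. With single animals left out the PON3 aggressiveness difference ranged from -0.00683 to 0.28 (0.313 among males only) and the interaction with stress response from -0.16 to 0.49, with -0.0543 under array weights. Counts of probe sets past the threshold changed as follows. For the interaction of stress response and aggressiveness 2 passed without the 2 arrays, 1 without the 3 arrays and 0 to 1 with single animals left out, in place of 0. For the interaction of stress response and sex 1 passed with a constant of 64, with the lowest 50% left out, with median centring and with limma's trend and robust option, and 0 to 5 with single animals left out, in place of 0. For sex 7 passed with the lowest 50% left out and 7 without the 3 arrays, in place of 11, 9 to 11 passed with single animals left out, and 12 with no filter. For stress response 0 to 1 passed with single animals left out, in place of 0. Averaging the probe sets of a gene could give no other value, since each member had 1. The alternatives with the added interaction, within a stress response level and without the 3 arrays were chosen after seeing the data.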
